A study of Mus musculus with 7 samples.

Results

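Apobec1 and Apobec3 encode the members of the APOBEC family of cytidine deaminases that were found among the 10550 genes counted in Kupffer cells, macrophages that live in the sinusoids of the liver. The members are 2 genes of 10550, taken by symbol, and they were chosen because Apobec1 was known to be far higher in the Commd10-deficient libraries. The values of both genes in that genotype comparison are therefore given as a description, without a test. Apobec2 and Apobec4, also looked for, are not analysed here. Both genes passed the filter on low counts.

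Cells came from untreated 8-week-old male C57BL/6 mice and were sorted from steady-state livers. The Commd10-deficient group (genotype label Clec4FDCommd10, 3 libraries) carried loxP-flanked Commd10 alleles and Cre expressed from the Clec4f locus, a Kupffer cell gene. The control group (genotype label Commd10fl/fl, 4 libraries) carried the same floxed alleles, came from the same litters per the series description and had no Cre, so an effect of Cre or of the altered Clec4f allele cannot be told apart from that of Commd10. Sample titles split the controls into control set 1, which holds replicates 1 and 2, and control set 2, which holds replicates 3 and 4. Each library came from about 10000 sorted cells and was made by a bulk form of MARS-Seq, which reads the 3′ ends of polyadenylated RNA and counts molecules by their unique molecular identifiers (UMIs). Whether each library is 1 animal is not stated in the labels; the tests therefore weigh differences against the spread of these libraries only, and that spread may be technical.

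APOBEC1 removes the amino group from cytidine in RNA, turning it into uridine. Its classical substrate is the apolipoprotein B transcript, in which the change creates a stop codon and a shorter protein; in the mouse this happens in intestine and also in liver. In mouse macrophages and enterocytes it also edits the 3′ untranslated regions of many messages, and it needs an RNA-binding cofactor, A1CF or RBM47, to find its sites. APOBEC3 acts on single-stranded DNA and, in the mouse, restricts retroviruses such as murine leukaemia virus and mouse mammary tumour virus.

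The best known APOBEC1 site shows what the enzyme reads. It lies in exon 26 of 29 of Apob, at chr12:8008049-8008078 (GRCm38, plus strand), and its edited C is at position 8008054. Capitals mark the edited CAA codon, codon 2179 of 4505 in the coding sequence, which becomes a stop codon, and after 2 further bases the 11-base mooring sequence that holds the editing complex.
Apob site: cgataCAAttTGATCAGTATAttaaagata

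Apobec1 lies on the minus strand at chr6:122577792-122602444 and Apobec3 on the plus strand at chr15:79891659-79915906 (GRCm38, GENCODE M21). The promoter windows of both genes, 250 bases before to 50 bases after the annotated start, are shown because the genes differ in how they varied between libraries (RefSeq, GRCm38.p6). Capitals mark any match, on either strand, to 7 short motifs: GAAA, any 2 bases and GAAA (interferon-stimulated response element), GAGGAA (PU.1 core), GGGCGG (GC box), TGANTCA (AP-1), TTNCNNAA (C/EBP), TATAAA and CACGTG (E-box).
Apobec1 chr6:122602395-122602694 minus: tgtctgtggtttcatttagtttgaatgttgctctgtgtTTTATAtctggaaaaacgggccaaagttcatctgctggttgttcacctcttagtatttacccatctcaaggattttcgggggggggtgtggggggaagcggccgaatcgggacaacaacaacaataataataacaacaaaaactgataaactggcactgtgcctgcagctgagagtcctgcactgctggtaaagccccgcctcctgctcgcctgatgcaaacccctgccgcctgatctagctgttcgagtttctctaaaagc
Apobec3 chr15:79892158-79892457 plus: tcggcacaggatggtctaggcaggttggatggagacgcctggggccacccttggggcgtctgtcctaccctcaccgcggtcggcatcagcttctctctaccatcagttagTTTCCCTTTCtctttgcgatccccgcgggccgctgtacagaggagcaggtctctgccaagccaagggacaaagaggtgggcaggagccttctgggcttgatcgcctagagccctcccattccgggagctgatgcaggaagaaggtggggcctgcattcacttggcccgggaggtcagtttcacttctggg

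The Apobec1 window held 1 match, to TATAAA, which 13.6% of 32544 promoter windows hold. The Apobec3 window held 1 match, to the interferon-stimulated response element, which 3.45% of windows hold. GC content was 48.3% in the Apobec1 window and 61.0% in the Apobec3 window, against a median of 53.0% over all windows. A second annotated Apobec3 start, at chr15:79894773-79895072, held 1 match each to GAGGAA (28.1% of windows) and TATAAA. These matches are descriptions of letters and not binding sites.

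The libraries differed widely in depth, so levels are given as CPM, counts scaled to a common library total with TMM factors. The Commd10-deficient libraries held 105462 to 124016 counts, control set 1 held 4270240 and 3207144, and control set 2 held 230942 and 267553. Commd10, the targeted gene, had 0, 4 and 2 counts in the Commd10-deficient libraries, against 167 and 130 in control set 1 and 7 and 1 in control set 2; the deleted exons are not given in the labels, so a 3′ tag may lie outside them and these counts do not check the genotype. Kupffer cell markers were high throughout, with 13 of 13 listed markers tested and a summed level of 42914 to 46495 CPM in Commd10-deficient and 40230 to 44408 CPM in control libraries.

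Apobec1 was higher in all 3 Commd10-deficient libraries than in any control library. It had 174, 171 and 126 counts in Commd10-deficient replicates 1 to 3, against 1852 and 1369 in control set 1 and 61 and 91 in control set 2. These are 1492, 1597 and 1019 CPM in Commd10-deficient libraries, against 406, 392, 285 and 372 CPM in control replicates 1 to 4. The lowest Commd10-deficient library was thus 2.51 times the highest control library.

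The group means of Apobec1 were 1369 ± 308 CPM in Commd10-deficient cells (SD, n = 3) and 364 ± 54.4 CPM in controls (SD, n = 4), a ratio of 3.76. In the edgeR fit the log2 fold change was 1.90 (SE 0.27). Higher values without overlap between the groups were found for 13.2% of the 3412 genes tested, and Apobec1 was picked from among them, so nothing is read from that share. Commd10-deficient replicate 3 was the lowest of its group, and its exact 95% Poisson interval, 849 to 1213 CPM, lay below those of replicates 1 and 2, which began at 1278 and 1367 CPM. These intervals cover counting error only. In sorted bulk samples, more cells that express the gene and more RNA per cell cannot be told apart.

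Apobec3 gave another picture, with groups that overlapped. It had 7, 11 and 14 counts in Commd10-deficient replicates 1 to 3, against 598 and 418 in control set 1 and 13 and 30 in control set 2. These are 60.0, 103 and 113 CPM in Commd10-deficient libraries, against 131, 120, 60.7 and 123 CPM in control replicates 1 to 4. The lowest library of each genotype stood at nearly the same level, Commd10-deficient replicate 1 at 60.0 CPM and control replicate 3 at 60.7 CPM.

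Apobec3 averaged 92.0 ± 28.2 CPM in Commd10-deficient cells (SD, n = 3) and 109 ± 32.3 CPM in controls (SD, n = 4), a ratio of 0.848. The log2 fold change was -0.27 (SE 0.39). The Poisson interval of Commd10-deficient replicate 1 ran from 24.1 to 124 CPM. At this depth changes of the gene near that SE in size were hardly detectable in either direction. Exons of Apobec3 share 676 bases with D730005E14Rik, a gene on the same strand that is not analysed here, and 100 bases with Cbx7, a Polycomb gene on the opposite strand. The counts of Apobec3 are uncertain to that extent, since how the counting treated shared bases and strand is not given in the sources used here. Cbx7 itself had 0, 2 and 3 counts in Commd10-deficient libraries, against 96 and 49 in control set 1 and 2 and 5 in control set 2. No exon of another gene overlaps those of Apobec1.

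**Figure D1:**
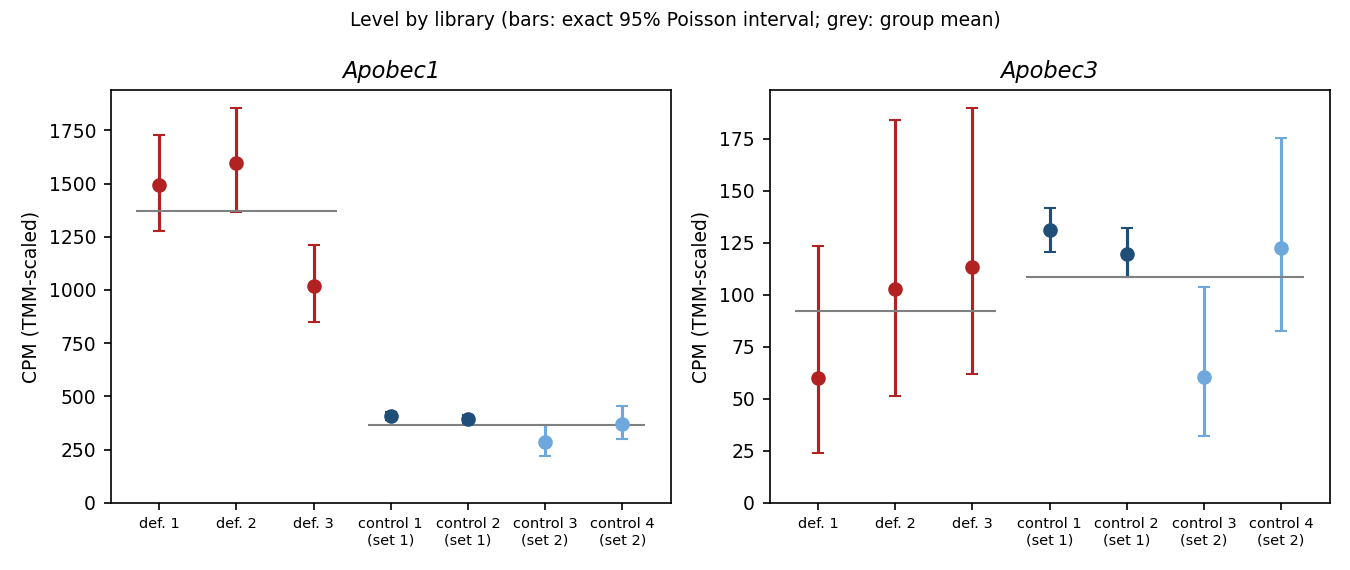
Level of Apobec1 (left) and Apobec3 (right) in each library, in CPM on a linear axis; points are libraries, bars exact 95% Poisson intervals and grey lines group means, with Commd10-deficient libraries (def.) in red, control set 1 in dark blue and control set 2 in light blue. The 3 Commd10-deficient libraries sit between 1019 and 1597 CPM for Apobec1, above all 4 controls, while the groups overlap for Apobec3.

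The share of Apobec1 among the counts of both genes needs no library factor. It was 96.1%, 94.0% and 90.0% in Commd10-deficient replicates 1 to 3, against 75.6% and 76.6% in control set 1 and 82.4% and 75.2% in control set 2. The group means were 93.4% ± 3.11 in Commd10-deficient libraries (SD, n = 3) and 77.5% ± 3.37 in controls (SD, n = 4). The groups did not overlap, although the exact Clopper-Pearson 95% interval of Commd10-deficient replicate 3, 83.8% to 94.4%, reached into that of control replicate 3, 71.8% to 90.3%. The share uses the Apobec1 counts on which the gene was chosen, so nothing is read from the lack of overlap. Control replicate 3 rests on 74 counts of both genes together, and the controls of set 1 on 2450 and 1787.

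**Figure D2:**
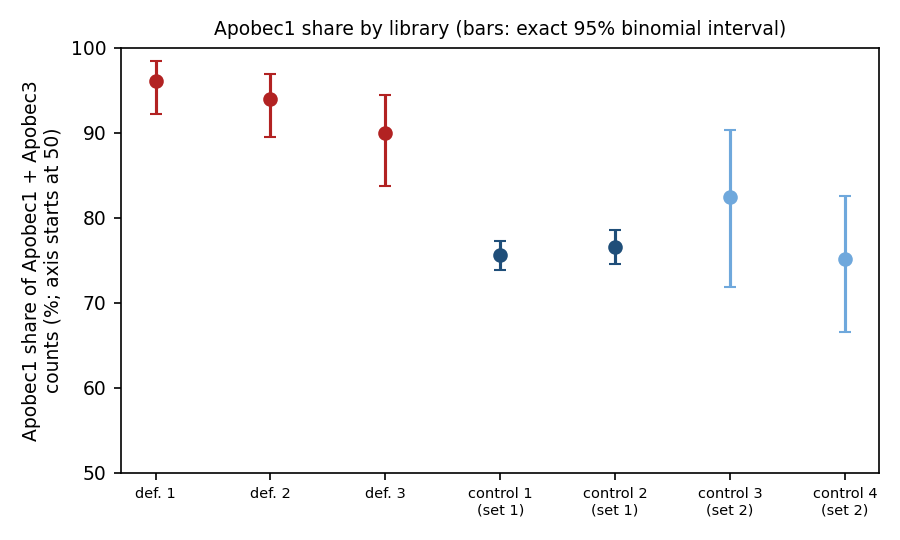
Apobec1 as a percentage of the summed Apobec1 and Apobec3 counts in each library, on an axis that starts at 50%; bars are exact 95% binomial intervals and colours mark Commd10-deficient libraries (red), control set 1 (dark blue) and control set 2 (light blue). Commd10-deficient libraries lie between 90.0% and 96.1% and controls between 75.2% and 82.4%.

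The comparison of the control sets was not used to choose the genes and could be tested. Control set 1 had 399 ± 9.27 CPM of Apobec1 and control set 2 had 328 ± 61.9 CPM (SD, n = 2 each). The log2 difference, control set 1 minus control set 2, was 0.28 (SE 0.27, edgeR adjusted p = 0.493, 95% interval -0.28 to 0.84). For Apobec3, control set 1 had 125 ± 7.87 CPM and control set 2 had 91.7 ± 43.9 CPM (SD, n = 2 each), a log2 difference of 0.44 (SE 0.38, edgeR adjusted p = 0.441, 95% interval -0.35 to 1.22). Neither gene passed, while 18.7% of the 3412 genes tested did in this comparison.

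Set against each control set in the same 3-level model, Apobec1 had a log2 fold change of 1.78 (SE 0.25) against control set 1 and of 2.05 (SE 0.26) against control set 2. The 2 values share the Commd10-deficient libraries. Those of Apobec3 were -0.45 (SE 0.37) against control set 1 and -0.01 (SE 0.43) against control set 2.

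**Figure D3:**
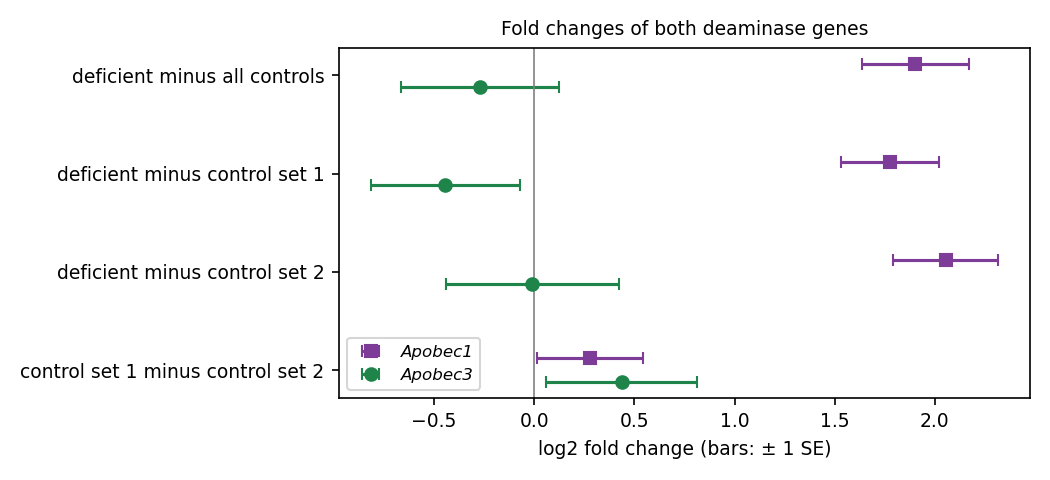
Log2 fold changes of Apobec1 (squares) and Apobec3 (circles) from the edgeR fits, with bars of 1 SE, for Commd10-deficient libraries minus all controls, minus control set 1 and minus control set 2, and for control set 1 minus control set 2. Apobec1 lies between 1.78 and 2.05 against any control, and both genes lie within 0.44 of 0 between the control sets.

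Cofactors that guide APOBEC1 were sparsely counted. Rbm47, an RNA-binding protein that can replace A1CF in the mouse, had 0, 0 and 0 counts in Commd10-deficient libraries, against 68 and 34 in control set 1 and 1 and 3 in control set 2. Over the pooled totals, 0 counts allow up to 8.67 CPM in Commd10-deficient libraries, against 13.6 CPM in control set 1 and 8.02 CPM in control set 2, so no difference from the control set of similar depth was detectable. Of the 8 genes listed as cofactors or partners, 7 were in the table, 2 were tested and 0 passed, whether by edgeR (0 even at an unadjusted p under 0.05), by DESeq2 or by limma-voom. Over all tested genes edgeR called 6.04%, so nothing about the list is read from 2 genes. Hnrnpab, an RNA-binding partner, had 309, 308 and 226 CPM in Commd10-deficient libraries, against 236, 260, 112 and 131 CPM in control replicates 1 to 4 (log2 fold change 0.56, SE 0.35, edgeR adjusted p = 0.353). It differed between the control sets, by 1.03 (edgeR adjusted p = 0.0231). Dnajb11, a chaperone of the endoplasmic reticulum found as a partner, was at -0.36 (SE 0.38, edgeR adjusted p = 0.608).

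Transcripts known as APOBEC1 substrates rose in part. Of 24 listed, 20 were in the table and 15 were tested; 5 rose, 0 fell and 10 did not pass in edgeR, where 6.04% of the tested genes were called, 3.46% higher and 2.58% lower. The median log2 fold change of the 15 was 1.30, against -0.05 over all tested genes, and 14 were above 0. The list was written from general knowledge of edited mouse transcripts with earlier results of these data known. These counts measure the abundance of the transcripts and not their editing.

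App, which encodes the amyloid precursor protein, had 737, 673 and 534 CPM in Commd10-deficient libraries, against 244, 195, 224 and 241 CPM in control replicates 1 to 4. Its log2 fold change was 1.52 (SE 0.26, edgeR adjusted p = 0.0126). The groups did not overlap, and 13.2% of all tested genes were higher without overlap. B2m, the light chain of MHC class I, had 21022, 21523 and 16186 CPM in Commd10-deficient libraries, against 5061, 8631, 10636 and 12111 CPM in controls (1.10, SE 0.28, edgeR adjusted p = 0.0352). The control sets also differed in B2m, by -0.73 (edgeR adjusted p = 0.0368), and control set 2 was the nearer to the Commd10-deficient level.

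Lamp2, a membrane protein of lysosomes, had 557, 476 and 598 CPM in Commd10-deficient libraries, against 222, 194, 252 and 331 CPM in controls (1.14, SE 0.28, edgeR adjusted p = 0.0318). Serinc1, a membrane protein linked to serine incorporation into lipids, had 343, 215 and 178 CPM in Commd10-deficient libraries, against 75.3, 99.8, 112 and 115 CPM in controls (1.32, SE 0.33, edgeR adjusted p = 0.0338). Hprt, the purine salvage enzyme, had 343, 271 and 267 CPM in Commd10-deficient libraries, against 130, 171, 70.0 and 85.9 CPM in controls (1.30, SE 0.34, edgeR adjusted p = 0.0374). Without Commd10-deficient replicate 1, or without replicate 2, 0 of 17 tested members passed in edgeR, nor did any of all 4059 or 4080 tested genes. Without replicate 3 App alone passed, where 0.837% of 4061 tested genes were called higher and 0.64% lower. Over all pathway lists together 9, 12 and 14 genes had an unadjusted p under 0.05 in edgeR in these fits. Of all tested genes 666 of 4059, 683 of 4080 and 887 of 4061 did, and nothing about the lists is read from these counts. Without Commd10-deficient replicate 1 or 2 the loss of calls was not particular to the substrate list, as 0 of all tested genes passed. Among list members that did not pass in the fit of all libraries, the fatty acid receptor gene Cd36 was at 2.55 (edgeR adjusted p = 0.0656). Tmem30a, a subunit of lipid flippases, was at 2.17 (adjusted p = 0.0654), the deubiquitinase gene Usp25 at 1.20 (adjusted p = 0.059) and Kctd12 at 1.82 (adjusted p = 0.123). Single controls moved Cd36 and Tmem30a: without control replicate 2 Cd36 was at 1.90 (edgeR adjusted p = 0.0477) and Tmem30a at 1.65 (adjusted p = 0.0482), and without control replicate 4 Cd36 was at 3.24 (adjusted p = 0.0209) and Tmem30a at 2.90 (adjusted p = 0.0174). Over all alternatives the adjusted p ran from 0.00275 to 0.317 for Cd36 and from 0.000221 to 0.231 for Tmem30a. Tmbim6, an inhibitor of cell death in the endoplasmic reticulum, was the member below 0, at -0.15.

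The list also differed between the control sets, and its values depended on a joint correction for GC content and transcript length. Control set 1 minus control set 2 gave a median of -0.73 over the 15, against -0.05 over all tested genes. In edgeR 1 of the 15 was higher and 6 were lower, where 7.8% of all tested genes were higher and 10.9% lower. Against control set 1 12 of the 15 were higher (11.6% of all tested genes were), and against control set 2 6 of 15 (8.7% of all), in the 3-level model. The longest annotated transcripts of the list had a median GC content of 43.5%, against 51.7% over 3310 tested genes. With an offset for GC content and length the median was 0.67 and App alone was called, at 1.05 (edgeR adjusted p = 0.0369), where 2.49% of all tested genes were called higher. Apobec1, with a GC content of 46.6%, was at 1.73 in that fit and Apobec3 at -0.16.

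**Figure D4:**
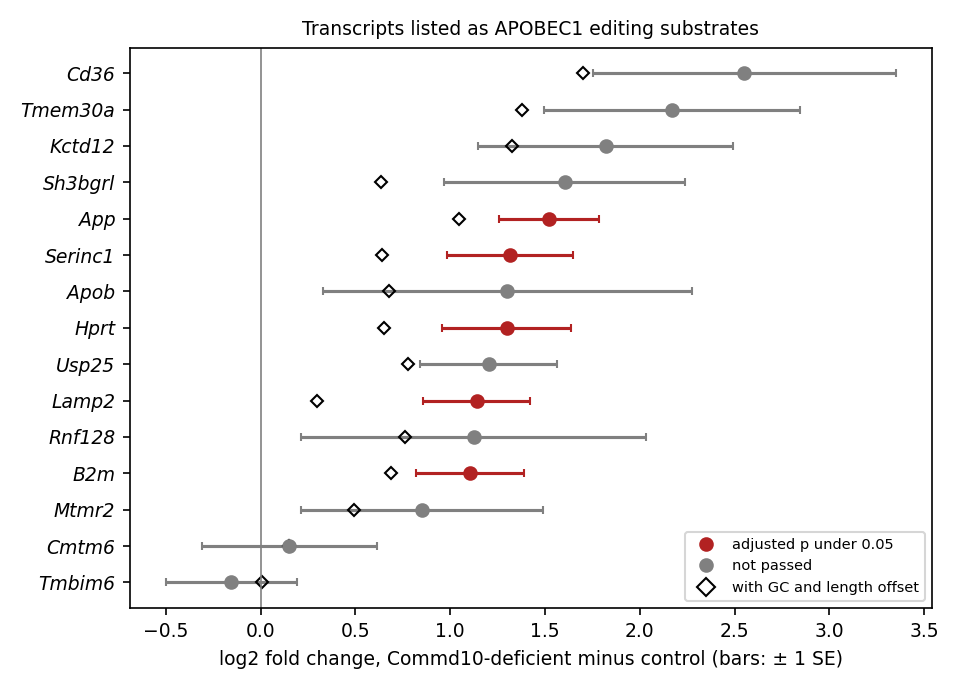
Log2 fold changes, Commd10-deficient minus control, of the 15 tested transcripts listed as APOBEC1 substrates, with bars of 1 SE; red points passed an adjusted p under 0.05, grey points did not, and open diamonds give the value with the GC and length offset. All but Tmbim6 lie above 0, and most diamonds lie nearer to 0 than their points.

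Other enzymes that act on bases in nucleic acids were sparsely counted in the Commd10-deficient libraries. Of 13 listed RNA and nucleoside deaminases, 8 were in the table and 1 was tested: Adar, the adenosine deaminase of double-stranded RNA, had 34.3, 28.0 and 80.8 CPM in Commd10-deficient libraries, against 66.8, 63.1, 107 and 53.2 CPM in controls (log2 fold change -0.55, SE 0.48, edgeR adjusted p = 0.523). Of 11 genes of uracil removal and base excision repair, 9 were in the table and 2 were tested. Apex1, the abasic site nuclease, was at 0.18 (edgeR adjusted p = 0.818) and the DNA polymerase gene Polb at -0.17 (adjusted p = 0.864). The uracil glycosylase gene Ung had 0 counts in each Commd10-deficient library, against 7 and 18 in control set 1 and 3 and 0 in control set 2. In these lists edgeR, DESeq2 and limma-voom each called 0 genes (0 at an unadjusted p under 0.05 in edgeR). As edgeR called 6.04% of all tested genes, nothing is read from lists with so few tested.

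Restriction factors that act beside APOBEC3 against retroviruses and retroelements gave 0 calls of 9 tested in edgeR and limma-voom and 1 in DESeq2 (2 at an unadjusted p under 0.05 in edgeR). Over all 3412 tested genes edgeR called 6.04%, and 825 had an unadjusted p under 0.05, so nothing about the list is read from these counts. It had a median log2 fold change of 0.33 against -0.05 over all tested genes. Trim30a, a mouse TRIM protein, had 111, 56.0 and 72.8 CPM in Commd10-deficient libraries, against 17.5, 29.5, 23.3 and 32.7 CPM in controls (1.68, SE 0.48, edgeR adjusted p = 0.0537). Samhd1, a dNTP hydrolase that limits reverse transcription, had 129, 112 and 145 CPM in Commd10-deficient libraries, against 334, 392, 210 and 119 CPM in controls (-1.07, SE 0.41, edgeR adjusted p = 0.128). Samhd1 also differed between the control sets, by 1.15 (edgeR adjusted p = 0.015). Ifitm2, a membrane protein that blocks viral entry, was at -0.62 (adjusted p = 0.29) and Trim25, a ubiquitin ligase of antiviral RNA sensing, at -0.64 (adjusted p = 0.318).

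Genes with the profile most like that of Apobec1 were sought by the root mean square difference of log2 CPM, each gene centred on its own mean over the 7 libraries, among the 2777 tested genes that averaged 50 CPM or more. The nearest was Vcam1, an adhesion molecule (difference 0.24), with 441 ± 54.6 CPM in Commd10-deficient cells (SD, n = 3) and 120 ± 38.8 CPM in controls (SD, n = 4). It was followed by Dse, an epimerase of dermatan sulfate (0.25), Arhgap25, a GTPase-activating protein of Rac (0.26), the peroxisomal protease gene Lonp2 (0.27) and Pabpc1, the cytoplasmic poly(A)-binding protein (0.27). Nearest to Apobec3 were Tbkbp1, an adaptor of the kinase TBK1 (0.16), Rab1b (0.16), Pdlim4 (0.18), Gtpbp2 (0.19) and Bax, a pore-forming protein of apoptosis (0.22). The log2 fold changes of these 5 ran from -0.33 for Bax to -0.04 for Rab1b.

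Neighbours on the chromosome were barely counted. Gdf3, 2959 bases beyond the 5′ end of Apobec1, had 0, 1 and 0 counts in Commd10-deficient libraries, against 12 and 4 in control set 1 and 2 and 2 in control set 2. Phc1, 237231 bases away on the other side, had 0, 0 and 2 counts in Commd10-deficient libraries, against 33 and 17 in control set 1 and 0 and 0 in control set 2. Cbx6, 56971 bases before Apobec3, had 3, 1 and 0 counts in Commd10-deficient libraries, against 75 and 27 in control set 1 and 2 and 1 in control set 2. These 3 genes and Cbx7, the nearest on either side among the genes of the table, were too low to be tested.

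Markers of other cell types were summed in each library. Hepatocytes, which express Apobec1 in the mouse, were represented by 13 of 13 markers, with a summed level of 6856 to 7450 CPM in Commd10-deficient libraries, above the 4711 to 5310 CPM of control set 1 and below the 9052 to 9665 CPM of control set 2. Of the 11 tested, 1 was called, where 6.04% of all tested genes were. This was Serpina3k, with 669, 785 and 437 CPM in Commd10-deficient libraries, against 379, 308, 266 and 221 CPM in control replicates 1 to 4 (log2 fold change 1.08, SE 0.30, edgeR adjusted p = 0.0446). Its groups did not overlap, and 13.2% of all tested genes were higher without overlap. Commd10-deficient replicate 3 was the lowest of its group, as for Apobec1, App and B2m. Other hepatocyte markers did not share 1 order over Commd10-deficient replicates 1 to 3. Alb had 248, 206 and 205 counts, Trf 274, 228 and 318 and Ttr 35, 32 and 44. Mup3 was also higher without overlap, at 0.89 (edgeR adjusted p = 0.0674), while Ahsg was lower without overlap, at -0.76 (adjusted p = 0.243). The share of all genes lower without overlap was not counted. Of the 11 tested hepatocyte markers 6 were above 0 and 5 below. Apoa2 was at -0.96 (edgeR adjusted p = 0.119) and Ttr at -0.80 (adjusted p = 0.18). B and plasma cell markers, 3 of 8 in the table, summed to 46.7 to 121 CPM in Commd10-deficient and 74.7 to 114 CPM in control libraries. T and NK cell markers, 2 of 9 in the table, reached at most 8.08 CPM in Commd10-deficient and 10.03 CPM in control libraries. Monocyte markers, 4 of 6 in the table, summed to 262 to 514 CPM in Commd10-deficient and 229 to 945 CPM in control libraries. Most of that sum was Plac8, with means of 346 CPM in Commd10-deficient and 530 CPM in control libraries. Ly6c2 had 4, 0 and 2 counts in Commd10-deficient libraries, against 8 and 5 in control set 1 and 1 and 0 in control set 2. Ccr2 had 3, 1 and 0, against 6 and 5 and then 0 and 1, while Chil3 had 0 in each Commd10-deficient library. Endothelial markers, 7 of 7, summed to 663 to 695 CPM in Commd10-deficient and 618 to 1053 CPM in control libraries. Of the 4 tested 0 passed, with 2 above 0 and 2 below, Pecam1 (-1.07) and Cdh5 (-1.39). Stellate cell and fibroblast markers, 3 of 6 in the table, reached at most 9.34 CPM in Commd10-deficient and 79.3 CPM in control libraries.

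Dendritic cell markers, 2 of 6 in the table, summed to 25.7 to 37.4 CPM in Commd10-deficient libraries, above the 0 to 17.7 CPM of controls, on 3, 4 and 4 counts of Clec9a, while Zbtb46 was at 0 in each Commd10-deficient library. Neutrophil markers, 5 of 8 in the table, summed to 103 to 234 CPM in Commd10-deficient and 32.7 to 104 CPM in control libraries. In Commd10-deficient replicates 1 to 3 Mmp9 had 8, 9 and 8 counts, S100a8 2, 2 and 9 and S100a9 2, 1 and 10. Mmp9, the only one tested, was at 0.30 (edgeR adjusted p = 0.754). The part of hepatocyte, monocyte, dendritic cell or neutrophil RNA in the Apobec1 level was not tested. Marco, a scavenger receptor of Kupffer cells, was the 1 call of 13 Kupffer cell markers, where 6.04% of all tested genes were called, and it fell to 593 ± 141 CPM in Commd10-deficient cells (SD, n = 3), against 2036 ± 769 CPM in controls (SD, n = 4; edgeR adjusted p = 0.0164). Kupffer cell markers that were higher without overlap, as 13.2% of all tested genes were, numbered 4: Cd163 at 1.09 (edgeR adjusted p = 0.0626), Adgre1 at 0.77 (adjusted p = 0.0788), Vsig4 at 0.70 (adjusted p = 0.111) and Csf1r at 0.49 (adjusted p = 0.27), none of which passed. Of the 13 markers 6 were above 0 and 7 below, Marco and Id3 (-0.71, edgeR adjusted p = 0.193) among the latter. Their median was -0.08, against -0.05 over all tested genes.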

How the data were processed

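Kupffer cell RNA was measured in 3 Commd10-deficient and 4 control libraries, grouped by the genotype labels. Raw counts per gene were deposited, so named in the file headers, after UMI correction as the table's title has it. Beside them stands a deposited normalized signal, which equals the raw count divided by 1 factor per library up to rounding; it served only as a check. The submitters' processing notes name HTSeq, cutadapt and DESeq2 and the mm10 build; settings are not given in the sources at hand. Columns with per-sample values that matched no sample numbered 0.

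Counts were tested with edgeR 4.0.16 (R 4.3.3; TMM, default expression filter on the genotype groups, robust quasi-likelihood F test, Benjamini-Hochberg over 3412 genes, calls at an adjusted p under 0.05). A model with the Commd10-deficient group and each control set as levels (3-level) gave the other contrasts. SEs come from the F statistics. CPM uses TMM-scaled totals; floors of 3 counts use the totals alone, and are 28.4 CPM in the shallowest and 0.703 CPM in the deepest library. Alternatives were DESeq2 1.42.0, limma-voom (limma 3.58.1), other factors, filters, controls and depths, and loess offsets for GC content and length (span 0.5). Libraries of 1 genotype differed by more than counting noise (chi-square over degrees of freedom at least 1.64). The scripts were tested on simulated data.

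The members and lists were chosen with earlier results of these data known. Named genes are the members, the called genes of each pathway list with up to 4 further tested genes of smallest p, called markers, the 5 nearest profiles per member, and chromosomal neighbours. Rbm47, Ung, Clec9a, Zbtb46, Tmbim6, Sh3bgrl, Mup3, Cd163, Adgre1, Vsig4 and Csf1r were named after their values were seen. So were Ahsg, Apoa2, Ttr, Id3, Mmp9, S100a8, S100a9, Plac8, Ly6c2, Ccr2, Chil3, Pecam1, Cdh5, Alb and Trf. Some genes considered for the lists are not reported here.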

Additional observations from a re-analysis of the deposited data

Results flagged for a closer look

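Apobec3 in control replicate 3, at 60.7 CPM, stood apart from the other controls, which lay between 120 and 131 CPM. Its gap to the nearest control was 0.842 of the range of the 4, above Dixon's 95% critical value for 4 samples. It rests on 13 counts. Chance flags about 1 in 20 groups of this size, and 23 measures, taken from the named genes and the Apobec1 share, were examined.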

How the results depend on the processing

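No paired analysis was possible because the labels number no replicates across genotypes; the numbers used here only name libraries. Apobec1 stayed between 1.66 and 2.09 (log2, Commd10-deficient minus control) over 15 alternatives. Apobec3 lay between -0.51 and 0.03, and it reversed, to 0.031, with control set 2 alone. Between the control sets neither gene passed in any of 12 alternatives (adjusted p 0.341 to 0.825 for Apobec1, 0.185 to 0.93 for Apobec3); leaving out 1 control there leaves a lone library, assumed to vary like the others. Without control replicate 4 that Apobec3 difference was 1.07 and without control replicate 3 it was 0.07; for Apobec1 these were 0.51 and 0.14.

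Genes called numbered 206 of 3412 tested, against 384 of 3412 with DESeq2 and 133 of 3412 with the GC and length offset. They numbered 514 of 10550 with no expression filter, 576 of 2297 with control set 1 alone and 697 of 2202 with control set 2 alone. With 1 library left out they numbered 0 to 276. List genes called numbered 5, against 8 with no expression filter and 2 with the GC and length offset. They numbered 11 with control set 1 alone, 13 with control set 2 alone and 0 to 10 with 1 library left out. With all libraries 3.46% of all tested genes were called higher and 2.58% lower. These shares were 13.5% and 11.6% with control set 1 alone and 15.7% and 16.0% with control set 2 alone. As the share over all genes moved with the setting, nothing about the lists is read from these list counts or those below. Leaving out Commd10-deficient replicate 1 or 2 brought the edgeR calls to 0 (unadjusted p under 0.05 for 666 and 683), those of DESeq2 to 81 and 93 and those of limma-voom to 0 and 15; of the list genes edgeR called 0 (9 and 12 unadjusted), DESeq2 1 each and limma-voom 0. Without Commd10-deficient replicate 3 edgeR called 60 genes and 1 list gene, App; without control replicate 1 it called 3 list genes and without control replicates 2 or 4, 10 or 8. Apex1 reversed with no filter (-0.048), with control set 2 alone (-0.077) and without control replicate 1 (-0.0066; range -0.0066 to 0.28 with 1 library left out), Polb without Commd10-deficient replicate 1 (0.16; range -0.68 to 0.16), and Ifitm2 with the GC and length offset (0.11). The causes were not tested. Depth limits the sparse lists: a floor of 3 counts exceeds 24 CPM in each Commd10-deficient library.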

Other observations

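Within control set 1, several transcripts of the substrate list differed between the libraries by far more than Apobec1 did (406 CPM in control replicate 1 and 392 CPM in control replicate 2). Sh3bgrl, named for its likeness to an SH3-binding protein, had 309, 299 and 307 CPM in the Commd10-deficient libraries, against 125 CPM in control replicate 1, 11.8 CPM in control replicate 2 and 154 and 135 CPM in control set 2. Kctd12 stood at 113 CPM in control replicate 1 and 19.5 CPM in control replicate 2, and Cd36 at 14.5 and 2.29 CPM in the same libraries.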
